A study of Homo sapiens with 6 samples.

Results

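Cytosolic ribosomal protein genes were followed in LNCaP prostate cancer cells with and without knockdown of PSMA, the prostate-specific membrane antigen encoded by FOLH1. A gene was taken as a member when its platform symbol began with RPL or RPS followed by a digit, or was RPSA, RPLP0, RPLP1 or RPLP2. S6 kinase genes and pseudogenes were left out, and only probe sets listed with 1 symbol were used. The rule found 58 of 11963 genes, carried by 96 probe sets. A filter on dim probe sets, which asked for at least 3 of the 6 arrays at log2 4 or more, kept 56 of the 58 among 9241 genes. RPL3L and RPL39L did not pass, and their values stayed under log2 4 on every array.

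LNCaP is an established human prostate cancer line that carries PSMA on its surface, and the study asks how expression differs when PSMA is low. RNA was measured on 1-colour Affymetrix arrays, 3 of control LNCaP cells, labelled as untreated and grown in RPMI medium, and 3 of LNCaP cells transduced with a retroviral short hairpin RNA against PSMA. No label mentions an empty vector for the controls or separate cultures for the replicates. Each p-value therefore rests on the scatter among these arrays, possibly technical, both of the gene itself and of all genes tested. Nor can transduction be told apart from loss of PSMA. The 3 bright probe sets listed with FOLH1 together with its copy FOLH1B differed by -2.27, -2.23 and -2.72 on the log2 scale, knockdown minus control, and no knockdown array reached a control array. The dim probe set listed with FOLH1 alone differed by -0.79. Of 8 luminal and LNCaP markers with a usable probe set, all 8 passed the filter, KRT18 at a control mean of 11.57. In the test described below 3 of these 8 were higher and 3 lower (37.5% each, against 19.4% and 16.5% of all genes). Their differences ran from -0.71 for KLK3 to 0.79 for ACP3. Of 5 leukocyte markers, CD3E and ITGAM passed the filter, at no more than 4.67 on any array, and PTPRC stayed under log2 4. Of 4 endothelial markers, PECAM1 and VWF passed, at no more than 5.58, and KDR stayed under log2 4.

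The cytosolic ribosome joins a small and a large subunit, each built of ribosomal RNA and a set of proteins made in nearly equal numbers. Its protein genes are scattered over the genome, are among the most strongly transcribed genes of growing cells, and share messenger RNAs that start with a terminal oligopyrimidine (TOP) motif. The TOP start places their translation under mTOR and LARP1, which makes them a textbook example of coordinated output. Several members also act outside the ribosome, such as RPL11, which binds MDM2 when ribosome assembly is disturbed.

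The start-site sequences of the members are shown because the shared start, not the rule, is what the family is best known for. The following windows were read from RefSeq (GRCh38.p14), 15 bases before the annotated start and 15 from it, 5′ to 3′ on the strand of the gene, with the run of C and T that begins at the start base in capitals where it makes a TOP-like start. RPS10 lies at chr6:34426055-34426084 on the minus strand, RPS3 at chr11:75399503-75399532 on the plus strand, RPS21 at chr20:62387088-62387117 on the plus strand, RPL38 at chr17:74203663-74203692 on the plus strand, RPLP1 at chr15:69452803-69452832 on the plus strand, RPL41 at chr12:56116618-56116647 on the plus strand and RPS27L at chr15:63157463-63157492 on the minus strand.
RPS10: ccgcgcatgctccttCCTTTCCagccccgg
RPS3: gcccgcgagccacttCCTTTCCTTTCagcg
RPS21: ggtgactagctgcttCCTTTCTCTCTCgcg
RPL38: aacggaagtctcgttCTTTTTCgtcctttt
RPLP1: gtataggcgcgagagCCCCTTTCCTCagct
RPL41: cggaacttcgcctttCTCTCggccttagcg
RPS27L: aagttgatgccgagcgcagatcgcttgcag

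A TOP-like start, written here as a C at the start base followed by at least 4 bases of C or T on the strand of the gene, was found in 34 of the 50 members with a window (68.0%). The same letters began 1404 of 27305 genes in the table (5.14%) and 4 of 45 mitochondrial ribosomal protein genes (8.89%). Members that passed the test described next had it in 12 of 17 cases (70.6%), and those that did not in 22 of 33 (66.7%). RPS10, RPS3, RPS21 and RPL38 rose, and RPLP1, which carries the same kind of start, had a log2 difference of -0.01. RPL41 also carries it, but its probe set read the same highest value on 5 of the 6 arrays and could not go higher. Among the 5 paralogues past the filter, which are extra gene copies such as RPS27L, 1 had such a start. An annotated start is 1 position, and no match says only that the letters are not at that position.

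At the level of genes, 18 of the 56 ribosomal protein genes were slightly higher in knockdown cells and 0 passed the test as lower. On log2 GCRMA intensities, limma with Benjamini-Hochberg adjustment over all 9241 genes called 18 of 56 members higher at an adjusted p under 0.05 (32.1%, against 19.4% of all genes tested) and 0 lower (against 16.5%). The called differences were small. They ran from 0.14 for RPS16 to 0.46 for RPL27A on the log2 scale, and only RPL27A was also at least 25% higher, 1 of 56 members (1.79%) against 9.81% of all genes. RPL26L1 narrowly missed that threshold, at 24.97% higher. In bulk RNA, a change in every cell and a change in the share of cells cannot be told apart. The median difference over members was 0.08, from -0.08 for RPL10L to 0.46 for RPL27A, and the median over all genes was 0.03. In all, 48 of 56 members lay above 0 (85.7%, against 54.9% of genes). All 3 knockdown arrays lay above all 3 control arrays for 37 members (66.1%, against 27.0%) and below them for 1, RPL22 (against 22.4%).

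**Figure D1:**
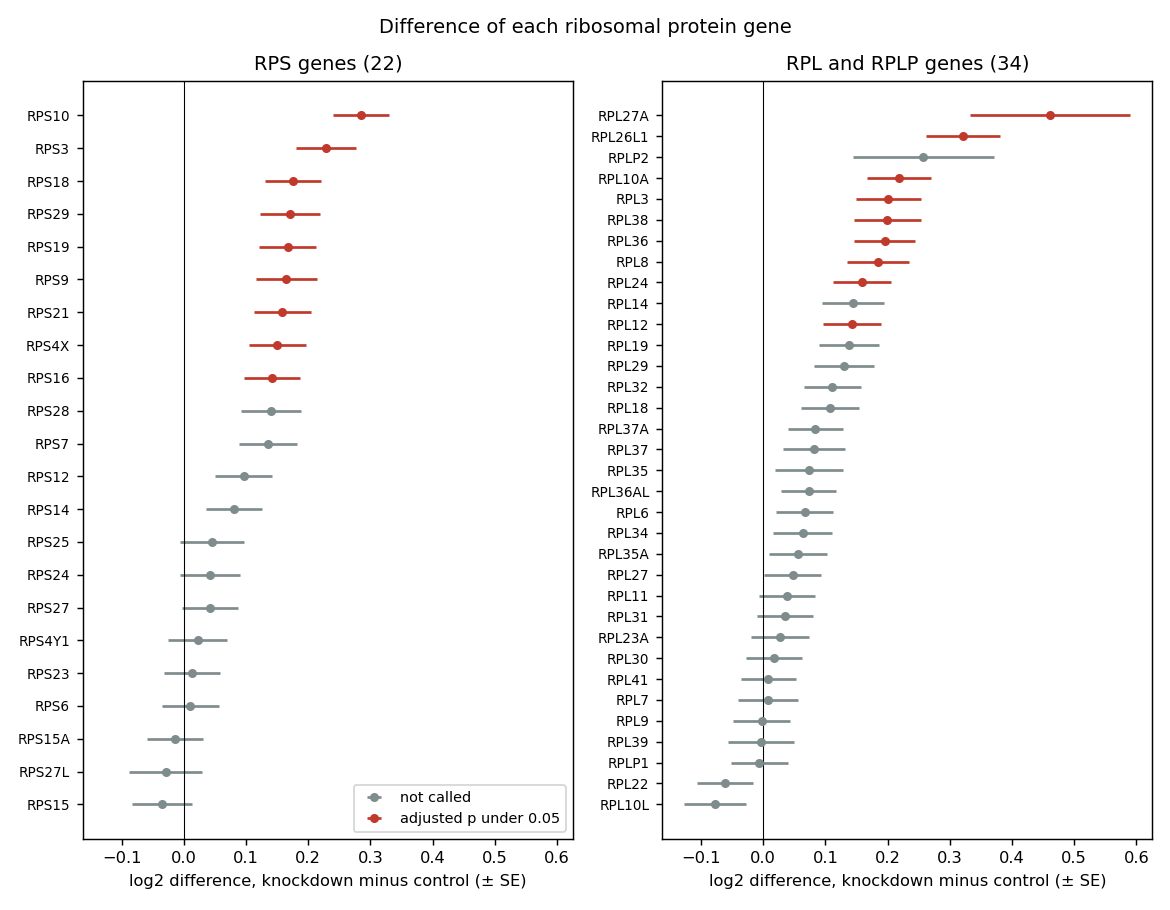
Log2 difference of each of the 56 ribosomal protein genes past the filter, knockdown minus control, with its standard error from limma (3 arrays per group). Genes are split by subunit name and ordered by difference, and red marks an adjusted p under 0.05; the 18 called genes are all to the right of 0, from 0.14 to 0.46.

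The count of called members was less stable than the direction. Leaving out 1 array at a time gave 6, 5 and 7 called members without control 1, 2 and 3, and 6, 5 and 15 without knockdown 1, 2 and 3. Between 8.93% and 26.8% of members were then higher, against 13.8% to 18.5% of all genes, so that in 5 of the 6 fits the member share was below the background. RPS10, RPS3 and RPL26L1 were called in all 6 fits, RPL10A in 5 and RPL36 in 4. The number of members above 0 stayed between 47 and 51 of 56 over these fits, and 0 members were called lower. A second quantile normalization left 13 called (23.2%, against 21.6% of genes) with a member median of 0.04, against 0.03 over all genes, so that members and all genes were then nearly level.

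Among proteins of the small subunit, 9 of 22 genes rose (40.9%, against 19.4% of all genes) and 0 fell (against 16.5%), with a median difference of 0.12. RPS10, a protein of the subunit head near the mRNA entry that is ubiquitinated at stalled ribosomes, read 13.84, 13.83 and 13.83 in control arrays and 14.12, 14.13 and 14.10 in knockdown arrays. The groups did not overlap, and the difference was 0.29 (SE 0.05, adjusted p = 0.00256), a 21.9% higher signal. RPS3, which sits at the mRNA entry channel and also has a role in DNA repair, read 12.71, 12.68 and 12.71 in control and 12.90, 12.98 and 12.91 in knockdown arrays. Its difference was 0.23 (SE 0.05, adjusted p = 0.00912), again with no overlap between groups.

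RPS18, a head protein that contacts the large subunit, went from 13.96, 13.97 and 13.96 to 14.13, 14.15 and 14.13, a difference of 0.18 (adjusted p = 0.0188). RPS29, a zinc-binding protein, went from 13.60, 13.58 and 13.60 to 13.81, 13.77 and 13.72 (0.17, adjusted p = 0.0275). RPS19, the gene most often mutated in Diamond-Blackfan anaemia, went from 13.30, 13.28 and 13.28 to 13.48, 13.46 and 13.42 (0.17, adjusted p = 0.0256). In each of these 3 genes every knockdown array exceeded every control array by more than the spread within either group. RPS21, which takes part in processing of the small-subunit RNA, went from 13.75, 13.72 and 13.74 to 13.88, 13.91 and 13.89 (0.16, adjusted p = 0.029). RPS9, RPS4X and RPS16 rose by 0.16, 0.15 and 0.14, and of the 6 fits that left out 1 array they were called in 1, 0 and 0. RPS29, RPS19 and RPS21 were each called in 1 of the 6, and RPS18 in 3. The 13 small-subunit genes that did not pass lay between -0.04 (RPS15) and 0.14 (RPS28).

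Among proteins named for the large subunit, the acidic stalk included, 9 of 34 genes rose (26.5%, against 19.4% of all genes) and 0 fell (against 16.5%), with a median of 0.08. RPL10A, the protein of the mobile stalk beside the exit site for transfer RNA, read 12.96, 12.93 and 13.02 in control and 13.23, 13.18 and 13.15 in knockdown arrays. The groups were separate, at a difference of 0.22 (SE 0.05, adjusted p = 0.0135). RPL3, which reaches towards the peptidyl transferase centre, went from 13.28, 13.35 and 13.31 to 13.55, 13.55 and 13.45, a difference of 0.20 (adjusted p = 0.0206). RPL8, another protein close to that centre, went from 13.13, 13.08 and 13.11 to 13.32, 13.33 and 13.24, a difference of 0.18 (adjusted p = 0.0237). The control and knockdown arrays of both genes were separate.

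RPL38, known from mouse studies for its part in translating Hox messages, went from 13.22, 13.24 and 13.24 to 13.52, 13.42 and 13.37 (0.20, adjusted p = 0.0241). Knockdown array 1 was the highest, and the knockdown SD of 0.07 exceeded the control SD of 0.01. RPL36 went from 12.95, 12.87 and 12.93 to 13.12, 13.13 and 13.08 (0.20, adjusted p = 0.0177). RPL24 and RPL12 rose by 0.16 and 0.14, and both were called in 0 of the 6 fits that left out 1 array. RPL38 was called in 1 of those fits, RPL8 in 2 and RPL3 in 3. The other 25 large-subunit genes ran from -0.08 to 0.26 and did not pass.

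Several well-known large-subunit proteins stayed within a few hundredths of their control value. RPL11, the MDM2-binding protein, read 12.88, 12.87 and 12.89 in control and 12.92 in each of the 3 knockdown arrays, a difference of 0.04 with a 95% interval from -0.07 to 0.14. The groups of RPL11 did not overlap, yet the adjusted p was 0.54. Its SE from limma was 0.045, although its within-group SD was only 0.0084. RPL23A, a docking site for signal recognition particle at the tunnel exit, differed by 0.03 (interval -0.08 to 0.13), and RPL7 by 0.01 (interval -0.10 to 0.12). RPLP1, 1 of the stalk proteins that recruit elongation factors, read 13.91, 13.89 and 13.93 in control and 13.91, 13.92 and 13.88 in knockdown arrays. Its groups overlapped, at a difference of -0.01 (interval -0.11 to 0.10).

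RPL22 was the 1 member whose knockdown arrays all lay below its control arrays, at 12.71, 12.70 and 12.69 against 12.76, 12.75 and 12.77. The difference was -0.06 (interval -0.17 to 0.04) and did not pass (adjusted p = 0.324). Its 5 probe sets did not share a direction: differences ran from -0.06 to 0.23, and the dimmer probe set at 0.23 passed the probe set test (adjusted p = 0.0106).

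Of the 5 paralogues past the filter, 1 rose and 0 fell, against 19.4% and 16.5% of all genes. The share that rose was thus close to that of all genes. No difference within a pair of paralogue and partner was tested, and RPL10, RPL26 and RPL36A have no value among the members. RPL26L1, a close copy of RPL26, read 10.96, 10.95 and 11.03 in control and 11.40, 11.25 and 11.25 in knockdown arrays. It was 0.32 higher (SE 0.06, adjusted p = 0.00514), with separate groups. RPS27L, which is induced by p53, differed by -0.03 (interval -0.17 to 0.11), and its partner RPS27 by 0.04 (interval -0.06 to 0.15). RPL10L, an intronless copy known from testis, read 7.63, 7.62 and 7.57 against 7.53, 7.57 and 7.48, a difference of -0.08 that did not pass (adjusted p = 0.265). RPL36AL, an intronless copy of RPL36A, differed by 0.07 (interval -0.03 to 0.18).

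RPS4X, the X-linked gene, read 13.51, 13.54 and 13.56 in control and 13.68, 13.70 and 13.69 in knockdown arrays (0.15, adjusted p = 0.0373), and its Y-linked copy RPS4Y1 differed by 0.02 (interval -0.09 to 0.13). RPS4X lost its call in all 6 fits that left out 1 array. RPL37 and RPL37A, alike in name but not counted as paralogues, each differed by 0.08, neither past the test. RPL39, a small protein of the exit tunnel, differed by -0.00 (interval -0.13 to 0.12). RPL39L and RPL3L, the copies of RPL39 and RPL3, were below the filter.

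The largest member difference came from a dim probe set. The RPL27A probe set read 6.58, 6.94 and 6.71 in control and 7.37, 6.95 and 7.29 in knockdown arrays, and knockdown 2 was level with control 2. Its difference of 0.46 (SE 0.13, adjusted p = 0.0269) was called in only 2 of the 6 fits that left out 1 array. A far brighter probe set listed with RPL27A and SNORA3A, a small nucleolar RNA hosted in its introns, had a control mean of 13.90 and a difference of 0.06, not called. RPLP2, the other stalk protein, read 5.22, 5.30 and 5.43 against 5.64, 5.75 and 5.33 on its own dim probe set, with overlap, at a difference of 0.26 (adjusted p = 0.116). The probe set listed with RPLP2 and SNORA52 had a control mean of 13.33 and was higher by 0.19 (adjusted p = 0.0242). A probe set listed with several symbols cannot be ascribed to 1 of them.

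Such probe sets matter for this family, since many ribosomal protein genes host small nucleolar RNAs in their introns. Beside the 96 member probe sets, 59 list a ribosomal protein symbol, or a read-through named for one, with other symbols. Of these, 51 list a small nucleolar RNA. Of the 56 past the filter, 11 were higher (19.6%, against 16.8% of all probe sets with any symbol) and 1 was lower (against 18.2%). The 11 include a probe set listed with NUDT3 and its read-through with RPS10, which carries no separate ribosomal protein symbol. The median difference of the 56 was 0.08. The share called higher was thus nearer the background than among the members.

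Array by array, most members lay above their control mean in every knockdown array. The median deviation of the 56 genes from their control means was -0.00, -0.01 and 0.01 in the control arrays and 0.07, 0.10 and 0.08 in the knockdown arrays. The same median over all genes was 0.03, 0.03 and 0.01 in the knockdown arrays. Of 56 members, 45, 52 and 50 lay above their control mean in knockdown arrays 1, 2 and 3. The controls were uneven, with 26, 16 and 42 members above the mean in arrays 1, 2 and 3. The median within-group SD was 0.0247 over members and 0.0832 over all genes. Because limma draws the variance of each gene towards a value shared by all genes, the median SE of members was 0.0467. Member p-values thus rest in part on the scatter of other, noisier genes.

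**Figure D2:**
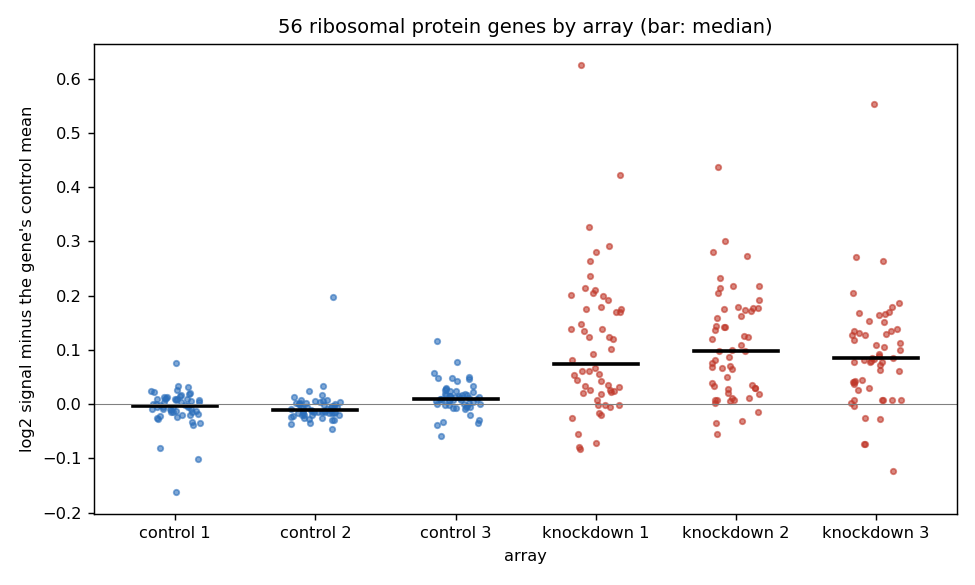
Log2 signal of each of the 56 ribosomal protein genes on each array, minus the mean of that gene over the 3 control arrays. Blue points are control arrays, red points knockdown arrays and black bars medians, which are -0.00, -0.01 and 0.01 in control and 0.07, 0.10 and 0.08 in knockdown arrays.

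Most members sit at the top of the signal range, where 48 of the 100 brightest genes are members. Among genes with a mean of log2 12 or more, 16 of 51 members were higher and 0 lower, with a median of 0.08. Of the 182 other genes at that signal, 29 were higher (15.9%) and 28 lower (15.4%), with a median of 0.03. Between log2 13 and 14, where 37 members lie, 13 of them were higher with a median of 0.10, and of 29 other genes 1 was higher and 7 were lower with a median of 0.01. The 7 members at 14 or more had a median of 0.04, with 1 higher. These bands were chosen after the values were seen. Over the 51 bright members, which share the same 6 arrays, signal and difference had a Spearman rho of -0.32 and a Pearson r of -0.20. RPL41, the very short protein at the subunit interface, was the brightest probe set on every array and read the same 14.47 on 5 of the 6, so that its difference of 0.01 could not exceed that ceiling.

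**Figure D3:**
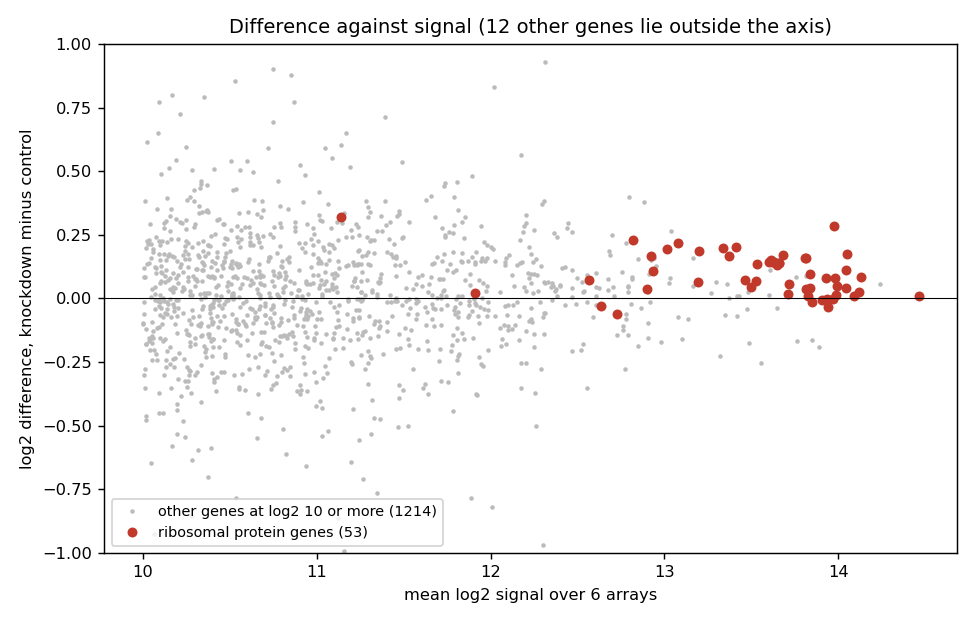
Log2 difference (knockdown minus control) against mean log2 signal over the 6 arrays for 53 ribosomal protein genes (red) and 1214 other genes (grey) with a mean of at least 10. At 12 or more the 51 members have a median of 0.08 and the 182 other genes a median of 0.03; 12 other genes lie outside the vertical axis.

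Probe sets of the same gene did not always give the same difference. Taken 1 by 1, 27 of the 89 member probe sets past the filter were higher (30.3%, against 16.8% of probe sets) and 2 lower (against 18.2%). Of 21 genes with more than 1 probe set, 7 had differences of both signs, and 3 had differences more than 0.5 apart. The gap between the highest and the lowest difference of a gene had a median of 0.07, close to the member median of 0.08, and reached 0.41 for RPL18 and 0.29 for RPL22 and for RPS28. The dimmer probe set of RPS21 went from 8.95, 8.99 and 9.05 to 10.08, 10.01 and 9.94, a difference of 1.01 with separate groups, against 0.16 on its brightest one. For RPL37A, a zinc-binding protein, a dim probe set went from 7.65, 7.56 and 7.61 to 6.96, 6.74 and 7.29, a difference of -0.61 (adjusted p = 0.00849), against 0.08 on the brightest and 0.02 on the remaining one. For RPL31, a protein beside the tunnel exit, a dim probe set went from 7.73, 7.56 and 7.72 to 7.08, 7.21 and 7.08, a difference of -0.55 (adjusted p = 0.000953), against 0.04 on the brightest and 0.07 on the remaining one. In these 3 genes the probe set that stands apart is a dimmer one, and the dim RPL37A and RPL31 probe sets were the 2 that passed the test as lower.

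**Figure D4:**
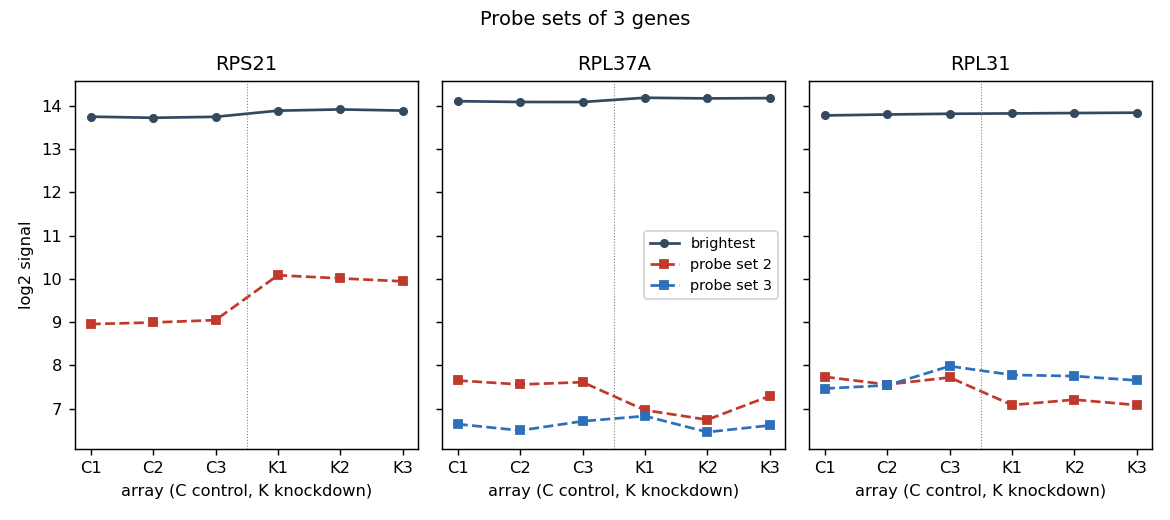
Log2 signal on each array (C1 to C3 control, K1 to K3 knockdown) of every probe set of RPS21, RPL37A and RPL31; solid lines are the brightest probe set of the gene and dashed lines the others. The brightest probe sets differ by 0.16, 0.08 and 0.04 between groups, the probe sets that stand apart by 1.01, -0.61 and -0.55, and the remaining ones of RPL37A and RPL31 by 0.02 and 0.07.

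The members lie on 20 chromosomes, and for some of them the surrounding genes shifted as well. For each member the tested genes next to it in RefSeq order were taken, up to 20 on either side. RPS10 at 0.29 had neighbours with a median difference of 0.31, of which 27 of 40 were called higher. RPL10A at 0.22 and RPS18 at 0.18, also on chromosome 6, had neighbour medians of 0.33 and 0.27. These 3 members were called higher but lay below the median of their neighbours. They are not separate cases, since RPS10 shares 29 of its 40 neighbours with RPL10A and 23 with RPS18. RPS7 on chromosome 2, at 0.14 and not called, had a neighbour median of 0.35. Chromosome 6 as a whole had a median of 0.14 over 504 genes, 39.3% of them higher.

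The other 15 called members all lay above their neighbours. Called members were picked for a high difference of their own, so this place and their excess follow in large part from that choice. RPS3 at 0.23 had a neighbour median of 0.01, RPL3 at 0.20 one of -0.05, and RPL26L1 at 0.32 one of 0.03. Over all 56 members the median excess over the neighbours was 0.06, with 37 above them, and over the 18 called members it was 0.14. With the median of each chromosome subtracted, a setting chosen after seeing the data, 8 members were called higher (14.3%, against 16.2% of genes), 7 of them among the original 18, and the member median was 0.06.

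**Figure D5:**
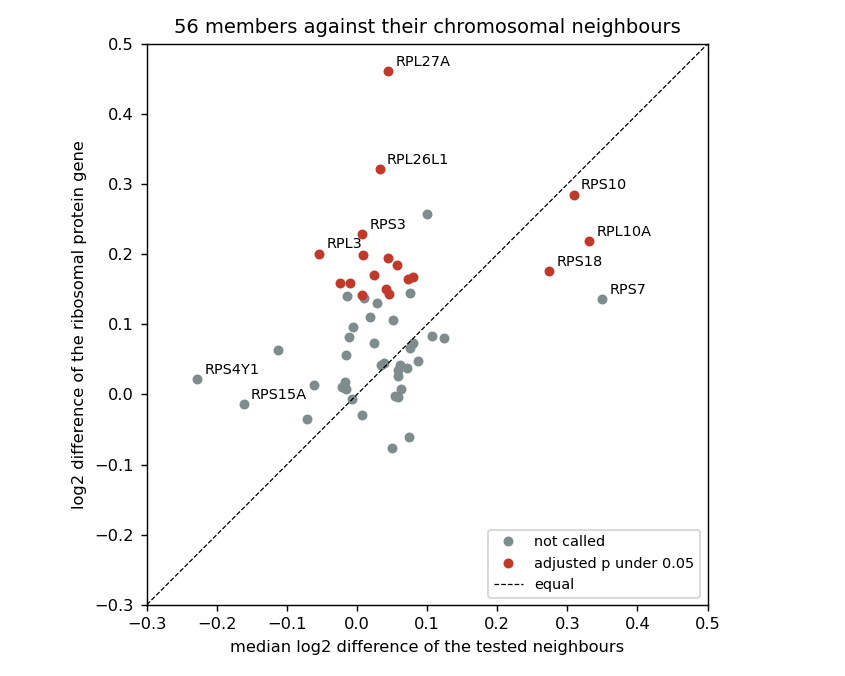
Log2 difference of each of the 56 ribosomal protein genes (vertical) against the median log2 difference of up to 20 tested genes on either side of it along the chromosome (horizontal); red marks an adjusted p under 0.05 and the dashed line equality. RPS10, RPL10A and RPS18 lie right of the line with neighbour medians of 0.31, 0.33 and 0.27. The other 15 called genes lie above it, in large part because called genes were picked for a high difference.

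Of 243 genes related to the ribosome, its control or its class of messages, tested in 10 lists, 61 rose (25.1%, against 19.4% of all genes). Of the same genes 40 fell (16.5%, equal to the 16.5% of all genes). Their difference from the members was not tested. FAU, which encodes a small-subunit protein fused to a ubiquitin-like protein and falls outside the naming rule, was higher by 0.27 (12.92, 12.92 and 12.87 against 13.22, 13.20 and 13.09, adjusted p = 0.0071). Of 50 mitochondrial ribosomal protein genes 9 rose (18.0%) and 8 fell (16.0%), both near the shares of all genes, with a median of -0.00. MRPS18A and MRPS10, both on chromosome 6, differed by 0.75 and 0.73, and MRPS31 on chromosome 13 by -0.52. A list of messages that also carry a TOP start held translation factors and other genes, such as HNRNPA1, VIM and TPT1. Of its 19 tested genes, 6 rose (31.6%) and 2 fell (10.5%), with a median of 0.06. EIF3F and EIF3H, subunits of an initiation factor, rose by 0.33 and 0.25, and HNRNPA1 by 0.54. The 2 that fell were VIM (-0.28) and TPT1 (-0.19). Of 26 translation factors outside that list 5 rose and 5 fell (19.2% each), with a median of -0.03.

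Assembly factors gave mixed counts, to be read against 19.4% of all genes higher and 16.5% lower. Of 30 genes of the small-subunit processome, the nucleolar complex that cuts and folds the small ribosomal RNA, 8 rose (26.7%) and 2 fell (6.67%), with a median of 0.10. Of 39 large-subunit assembly genes 10 rose (25.6%) and 5 fell (12.8%), with a median of 0.02. EIF6, which keeps the immature large subunit from joining, rose by 0.65. Of 12 small nucleolar ribonucleoprotein and nucleolar genes 6 rose (50%) and 2 fell (16.7%), with a median of 0.18. Fibrillarin (FBL), the methylase of ribosomal RNA, went from 11.56, 11.48 and 11.52 to 11.87, 11.94 and 11.72, a difference of 0.32 (adjusted p = 0.00775). Of these assembly genes, BYSL and WDR46 (0.49 and 0.40) lie on chromosome 6, and PWP2 and RRP1B (0.39 and 0.68) on chromosome 21, where all 6 related genes rose and 47.7% of all genes were higher.

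Genes of ribosomal RNA transcription and of control over TOP messages moved both ways. Of 28 RNA polymerase I and III genes 6 rose (21.4%, against 19.4% of all genes) and 7 fell (25%, against 16.5%). RRN3, the factor that makes polymerase I ready to initiate, went from 9.61, 9.65 and 9.70 to 8.81, 8.94 and 9.01, a difference of -0.74 with separate groups (adjusted p = 0.000166). RRN3 lies on chromosome 16, where 33.7% of all genes were lower. TAF1B, of the promoter selectivity factor of polymerase I, fell by 0.80, while POLR1C on chromosome 6 rose by 0.65. Of 23 regulators 6 rose (26.1%) and 7 fell (30.4%). LARP1, which binds the TOP start, was higher by 0.29 (adjusted p = 0.00423), and EIF4EBP1, the translation repressor that mTOR inactivates, differed by -0.32 (adjusted p = 0.00286). The kinase gene RPS6KA3 fell by 1.34. Of 15 quality control genes 4 rose (26.7%) and 2 fell (13.3%), and LTN1, the ubiquitin ligase for stalled chains, was higher by 1.34 and lies on chromosome 21.

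Signs of RNA or labelling quality differed between the groups. For the log2 signal at the 5′ end minus that at the 3′ end, the knockdown arrays all lay below the control arrays, by a difference of -0.82 for beta-actin, -0.10 for GAPDH and -0.97, -0.57, -0.34 and -0.36 for the added control transcripts dap, phe, thr and lys. The control probe sets for the small ribosomal RNA differed by -0.25, -0.16 and -0.15, and those for the large one by 0.43, 0.22 and 0.53. The groups overlapped for those at -0.15 and 0.22, and the one at 0.43 was dim, at a control mean of 4.60. The part of these quality signs in the differences of the ribosomal protein genes was not tested. Of 8 fibroblast and smooth muscle markers 5 passed the filter, with 2 called higher and 0 lower (against 19.4% and 16.5% of all genes). The 2 were COL3A1 and ACTA2, higher by 1.01 and 0.95. COL1A1, DCN and MYH11 also passed the filter, differed by 0.02, 0.11 and 0.13, and were not called. COL1A2, LUM and TAGLN stayed under log2 4. The part of these markers in the result was not tested either.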

How the data were processed

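Total RNA from 6 samples of LNCaP cells was labelled and hybridised to 1-colour Affymetrix arrays. The authors deposited probe set intensity values on a linear scale, made with GCRMA per the submitters' processing notes. Which version was run is not given in the sources used here. Intensities ran from 3.82 to 22631, with array medians of 48.2 to 50.3, and precision is limited by the small number of arrays. Groups came from the sample titles.

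Of 22277 probe sets, 62 were controls, 19064 carried 1 symbol, 1043 several and 2108 none in the platform annotation, where matching to RefSeq names changed 0 symbols. Intensities were log2-transformed. Probe sets with at least 3 of 6 arrays at log2 4 were kept, and the one with the highest mean stood for its gene. limma 3.58.1 (lmFit, eBayes, R 4.3.3) compared knockdown with control, adjusted by Benjamini-Hochberg over all 9241 genes, or over all probe sets for single probe sets. Intervals are 95% limits from limma. On simulated arrays with 200 changed genes, 0% of genes changed 1.1-fold, 42% of those changed by 25%, 72% at 1.5-fold and 98% at 2-fold were recovered, 50 each. With all 56 members set 25% higher and no other gene changed, 51 were called. Far fewer genes changed in both runs than were called in the data, which makes the adjusted threshold stricter. The recovered shares therefore do not give the sensitivity in the data, where RPS16 was called at 1.10-fold.

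The members, related lists and tests were chosen with earlier results of these data known. Members to name were up to 12 called members with the largest difference per direction, paralogues with partners, stalk proteins, the 3 with the smallest and the 3 with the largest spread, the dimmest and brightest 3, and those whose probe sets differed by over 0.5; a few others are named as ends of a range, as further called members or for a neighbourhood, chosen after their values were seen. Alternatives covered filters, normalization, probe set choice, variance model, weights for arrays, a replicate block, chromosome medians and leaving out each array.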

Additional observations from a re-analysis of the deposited data

Results flagged for a closer look

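Signals outside the member comparison also differed between control and knockdown arrays, with no overlap. A probe set listed with RPL13A and 4 small nucleolar RNAs was higher by 0.31 in knockdown cells. The other 4 probe sets listed with RPL13A were higher by 0.07, 0.11, 0.11 and 0.12, also with no overlap, but were not called. A dim probe set listed with RPL23 and SNORA21 was higher by 0.34, and the brighter one by 0.10, not called. A probe set listed with NUDT3 and its read-through with RPS10 was higher by 0.61. Of the large ribosomal RNA controls, the 3′ probe set was higher by 0.43 and the middle one by 0.53. The 3′ one was dim, at a control mean of 4.60, and the bright 5′ one, at 12.22, overlapped between groups.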

How the results depend on the processing

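No alternative gave a negative member median, and member genes were called lower only without probe sets whose ID ends in _x_at or _s_at, which may match several transcripts. That setting kept 20 members, with 9 higher (45.0%, against 18.6% of genes), 1 lower (against 15.7%) and a median of 0.12. It turned RPL22 to 0.23 and RPL31 to -0.55, and left 31 related genes higher and 21 lower, of a number tested that is not given here. The count of 18 members became 31 with an intensity trend in the variance (55.4%, against 21.0% of genes). The count fell to 1 when a member also had to be 25% higher (1.79%, against 9.81%). With chromosome medians subtracted, the count was 8 (14.3%, against 16.2%) and the median 0.059. It became 11 with the replicate number as a block (19.6%, as among all genes); same-numbered arrays had correlations of deviations of 0.11, 0.00079 and 0.18, which does not establish a pairing by these numbers. The median was 0.043 after a second quantile normalization (all genes 0.035), 0.11 with arrays centred on their median (all genes 0.056) and 0.10 without paralogues. Of 89 member probe sets, those higher went from 27 to 4 with the 25% threshold, and the share of all probe sets at that threshold is not given here. Leaving out 1 array gave 5 to 15 members higher (8.93% to 26.8%, against 13.8% to 18.5% of all genes) and medians of 0.077 to 0.10. The same fits gave 12 to 24 member probe sets higher, and 46 to 61 related genes higher with 25 to 37 lower. Between 12.8% and 14.7% of all genes were then lower. The numbers of probe sets and related genes tested in each fit are not given here, so their counts cannot be set against these shares. Of the comparisons of the 30 named members with their alternatives, 513 kept direction and call, 58 lost the call, 6 gained it and 2 reversed; among the 513, 25 changed sign without a call in either fit. The cause of these changes was not tested. The ceiling shared by 5 of 6 arrays limits RPL41.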
